A study of Mus musculus with 2 samples.

Results

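The collagen genes described here were the genes of a mouse kidney expression table whose symbol starts with Col followed by a digit, 38 of 20002 genes. Of these, 37 encode collagen chains, and they were compared by class as 10 fibrillar, 6 basement membrane and 21 other collagens. The remaining gene, Col4a3bp, encodes a ceramide transfer protein and was kept out of the classes. RNA-seq was performed on whole kidney of C57BL/6J mice, with 1 library for control mice and 1 for Reg-2 CKO mice. Reg-2 CKO mice had received AAV9 with shRNA against Regnase-2 by tail vein at 11 weeks of age. Regnase-2 is a ribonuclease that destabilizes mRNA and is encoded by Zc3h12b. Control mice had received AAV9 that did not target Regnase-2, which the AAV9 methods call an empty vector and the sequencing methods a control shRNA. RNA came from the left kidney, at 14 weeks of age in the sequencing methods, whereas the AAV9 methods place the harvest at 16 weeks. The name CKO therefore stands for a knockdown, and the methods and the supplement base its restriction to proximal tubules on immunofluorescence and on the preference of AAV9 for these cells. The sources used here do not say whether a library came from 1 mouse or from several. No difference has a replicate check, since each group is a single library, and the groups were not tested against each other.

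The deposited values were whole numbers that started at 35 in the control and at 51 in the CKO column. They were treated as reads plus a constant, and 34 and 50 were subtracted, which is an inference from the values. The control library then held 38851231 reads and the other library 43588721. To compare the libraries, CKO reads were multiplied by 0.667, the median gene ratio of control to CKO reads, and are called scaled reads. A log2 ratio is that of scaled CKO reads to control reads with a pseudocount of 1, and its 95% Clopper-Pearson interval, taken without the pseudocount, covers counting error only.

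Zc3h12b (chrX:95711678-95932637 in GRCm38) had 47 control and 59 CKO reads. Its log2 ratio was -0.25, with an interval from -0.83 to 0.33, and it turned to 0.16 when the library totals were made equal. A difference in the target mRNA was thus not detectable at this depth, and the group is called the library labelled CKO. The tissue label was checked with genes of defined kidney cells. The proximal tubule phosphate transporter gene Slc34a1 stood at 36923 and 16424 scaled reads per kilobase of transcript in the control library and in the one labelled CKO. Umod of the thick ascending limb stood at 34304 and 47506, and Aqp2 of the collecting duct at 3356 and 5806. Markers of several tubule segments were thus abundant in both libraries.

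Collagens are trimers of chains wound into a triple helix. Fibrillar collagens are secreted by fibroblasts and pericytes and form the fibers of the interstitium, which accumulate in kidney fibrosis. Collagen IV forms sheet-like networks in basement membranes: the chains of Col4a1 and Col4a2 assemble in nearly all of them, and those of Col4a3, Col4a4 and Col4a5 form the network of the mature glomerular basement membrane, where their loss causes Alport syndrome.

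Of the 38 collagen genes, 36 had at least 10 scaled reads in 1 library. Col6a4, with 4 control and 9 CKO reads, and Col6a5, with 9 and 12, did not. Among the 36, 15 were 2-fold or more higher in the library labelled CKO (41.7%), compared with 13.4% of the 17469 genes kept in the whole table. At least 2-fold lower was 1 collagen (2.78%), compared with 5.35% of all genes. The median log2 ratio of the 36 was 0.86, and that of all genes was 0.022. Of the 36, 29 were above 0 and 7 below, among them the abundant Col4a3 and Col4a4. With equal totals, 25 of 37 collagens kept were 2-fold or more higher and 1 lower, compared with 21.9% and 2.47% of 17682 genes, while the median of all genes moved to 0.44. Col4a6, Col9a3, Col25a1 and Col28a1 had fewer than 10 control reads and were kept only through their CKO reads. Of the 32 others, 13 were 2-fold or more higher. In bulk kidney tissue, more or fewer cells of a type and more or less RNA per cell cannot be told apart.

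**Figure D1:**
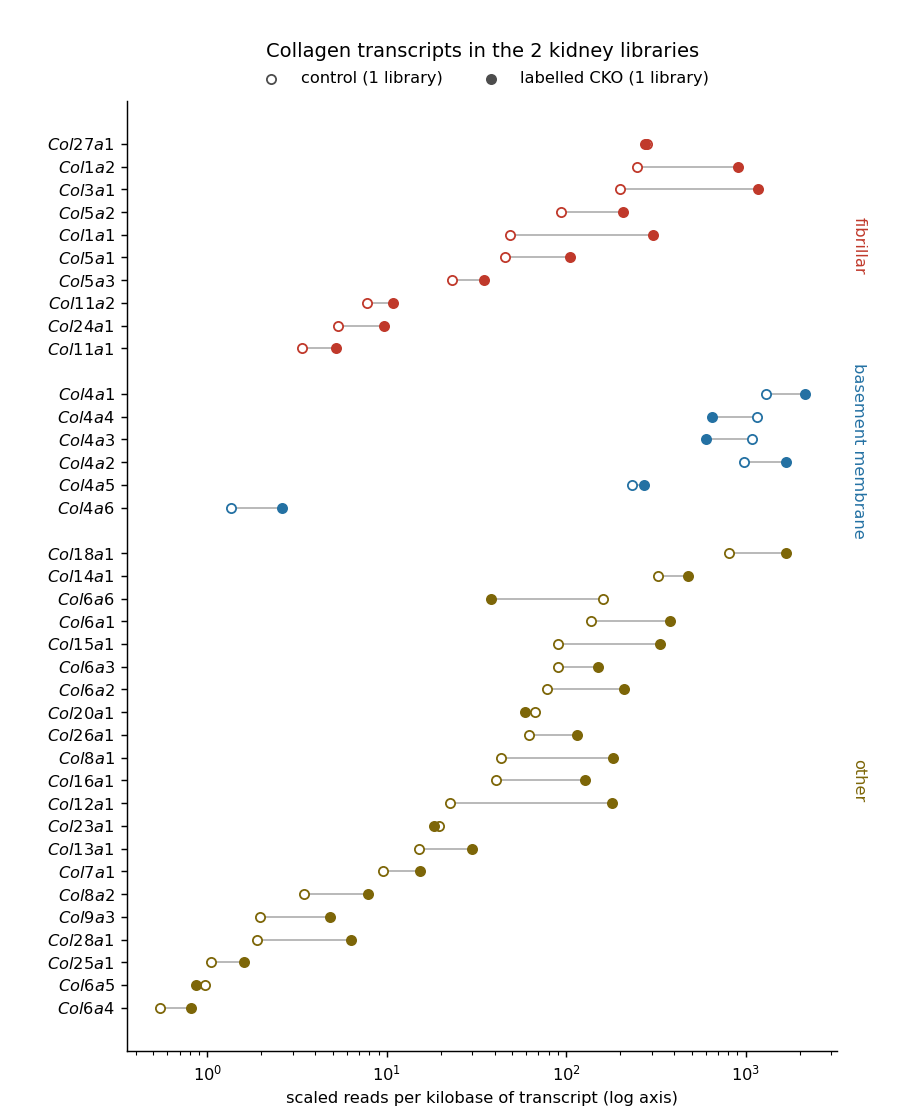
Scaled reads per kilobase of transcript, on a log axis, of the 37 collagen chains in the control library (open circles) and the library labelled CKO (filled circles), by class and in the order of the control level. Col4a1 had the highest level in both libraries, and the filled circle of Col6a6 lies far to the left of the open one, at 38.2 against 160.

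The fibrillar collagens were led by Col1a1, Col1a2 and Col3a1, the chains of the main interstitial fibers. Col1a1 (gene ID 12842, chr11:94936224-94953042), the major chain of type I collagen, had 288 control and 2711 CKO reads, a log2 ratio of 2.65 (interval 2.47 to 2.83). Col1a2 (gene ID 12843), its partner chain, had 1319 and 7272 reads, with a log2 ratio of 1.88 (1.79 to 1.96). Col3a1 (gene ID 12825, chr1:45311538-45349706), which forms type III collagen alone, had 1107 and 9779 reads, with a log2 ratio of 2.56 (2.47 to 2.65). Col1a1, Col1a2 and Col3a1 had the highest levels of their class in the library labelled CKO, at 305, 907 and 1172 scaled reads per kilobase, followed by Col27a1 at 276. In the control library their levels were 48.6, 247 and 199, and Col27a1 stood first at 283.

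The partner chains of type I collagen did not move in proportion. Per kilobase, there were 0.197 Col1a1 reads for each Col1a2 read in control kidney (interval 0.173 to 0.224) and 0.336 in the library labelled CKO (0.322 to 0.351). This ratio is taken within a library and does not depend on the scaling between them. The ratio of Col3a1 to Col1a1 was 4.10 (3.60 to 4.68) in control kidney and 3.84 (3.68 to 4.01) in the library labelled CKO, and these intervals overlap.

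Col5a1, Col5a2 and Col5a3 encode type V collagen, which starts fibrils and limits their width. Col5a1 had 385 control and 1321 CKO reads, and Col5a2 had 617 and 2055. Their log2 ratios were 1.19 and 1.15, and the ratio of Col5a1 to Col5a2 per kilobase was 0.492 in control kidney and 0.507 in the library labelled CKO. Col5a1 and Col5a2 therefore kept their proportion, unlike Col1a1 and Col1a2. Col5a3 had 141 and 321 reads, with a log2 ratio of 0.60, or 1.016 with equal totals.

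The other fibrillar chains were less than 2-fold apart, although equal totals put Col11a1 and Col24a1 past 2-fold. Col11a1, a type XI chain of cartilage fibrils, had 26 control and 60 CKO reads, and Col11a2 had 47 and 98. Their intervals, from -0.065 to 1.34 and from -0.041 to 1.01 on the log2 scale, include 0, so a difference was not detectable with this scaling, while equal totals gave 1.01 and 0.88. Col24a1 had 38 and 104 reads, with a log2 ratio of 0.85, or 1.26 with equal totals. Col27a1, a fibrillar chain found mainly in developing cartilage, had 2153 and 3146 reads, with a log2 ratio of -0.04 (-0.12 to 0.042), which became 0.38 with equal totals. The median of the 10 fibrillar collagens was 1.0, and 5 of them (50%, compared with 13.4% of all genes) were 2-fold or more higher. The summed scaled reads of the chains of types I, III and V were 4.05 times the control sum. The remaining 4 fibrillar chains had a median of 0.53, and Col27a1 supplied most of their reads.

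The promoters of Col1a2 and Col3a1 are shown because both genes were among the most changed fibrillar members while their sequences differed. Promoters from RefSeq (GRCm38.p6) matched 30 of the 37 chains in 32 windows, and the 250 bases before the start were searched on both strands for 3 motifs, whose matches are in capitals, 5′ to 3′ on the + strand. The Col1a2 window lies at chr6:4505368-4505617 and the Col3a1 window at chr1:45311288-45311537.
Col1a2: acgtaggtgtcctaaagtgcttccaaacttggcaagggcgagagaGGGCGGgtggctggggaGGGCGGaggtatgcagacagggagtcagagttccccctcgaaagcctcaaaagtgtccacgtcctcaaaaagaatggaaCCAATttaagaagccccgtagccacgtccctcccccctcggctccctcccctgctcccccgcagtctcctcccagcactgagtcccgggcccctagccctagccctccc
Col3a1: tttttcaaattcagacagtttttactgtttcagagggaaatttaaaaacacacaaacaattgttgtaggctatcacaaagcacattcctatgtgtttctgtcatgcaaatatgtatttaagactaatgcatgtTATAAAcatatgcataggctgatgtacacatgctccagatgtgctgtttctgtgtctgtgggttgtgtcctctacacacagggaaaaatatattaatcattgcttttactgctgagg

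The Col1a2 window was 62.0% G and C and held the GC and CCAAT boxes, and the Col3a1 window was 35.2% G and C and held the TATA box. The GC box, GGGCGG, was found in 21 of the 32 collagen windows (65.6%), compared with 32.7% of 32851 promoters of the same length. The CCAAT box, spelled by its name, was found in 11 (34.4%, compared with 33.8%) and the TATA box, TATAAA, in 3 (9.38%, compared with 12.4%). The collagen windows had a median of 60.0% G and C, and all promoters a median of 52.4%. A match describes the letters of the window only. Col1a1, Col4a3, Col5a2, Col9a3, Col12a1, Col14a1 and Col26a1 were not matched.

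The 6 collagen IV genes went in different directions, and none was 2-fold apart, although equal totals put Col4a1, Col4a2 and Col4a6 past 2-fold, at 1.14, 1.18 and 1.27. Col4a1 (gene ID 12826) had 8588 control and 21250 CKO reads, a log2 ratio of 0.72 (interval 0.69 to 0.76). Col4a2 (gene ID 12827), its partner, had 6350 and 16151 reads, with a log2 ratio of 0.76 (0.72 to 0.80). Both were higher in the library labelled CKO. Col4a3 (gene ID 12828) had 9313 control and 7700 CKO reads, a log2 ratio of -0.86 (-0.90 to -0.82). Col4a4 (gene ID 12829) had 11700 and 9847 reads, with a log2 ratio of -0.83 (-0.87 to -0.79). Both were thus below control in the library labelled CKO, and they stayed below 0 at -0.44 and -0.41 with equal totals and at -0.27 and -0.25 when left as deposited. Col4a5, whose chain joins those of Col4a3 and Col4a4, had 1524 and 2658 reads, with a log2 ratio of 0.22 (0.13 to 0.31). Col4a6, the chain of some smooth muscle and Bowman's capsule membranes, had only 9 and 26 reads, so its log2 ratio of 0.87 is loosely measured.

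The median of the 6 was 0.47, and 0.22 without Col4a6. Fibrillar collagens were thus 0.53 higher than basement membrane collagens in the median, but the latter describes no common direction. This gap was 0.78 without members under 10 control reads and 0.93 with 50 or more scaled reads required in either library. Col4a1 and Col4a2 stayed in proportion to each other, as did Col4a3 and Col4a4. Per kilobase, the ratio of Col4a1 to Col4a2 was 1.32 (interval 1.28 to 1.36) in control kidney and 1.28 (1.26 to 1.31) in the library labelled CKO. The ratio of Col4a3 to Col4a4 was 0.941 (0.915 to 0.967) and 0.924 (0.897 to 0.952). Between the networks the balance differed. The ratio of Col4a1 to Col4a3 was 1.19 (1.16 to 1.23) in control kidney and 3.57 (3.48 to 3.66) in the library labelled CKO, a change of 2.99 times that needs no scaling between the libraries. Col4a5 did not follow its partners: its ratio to Col4a3 was 0.214 (0.203 to 0.226) in control kidney and 0.452 (0.432 to 0.472) in the library labelled CKO.

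The collagen IV pairs that stayed in proportion are also neighbors in the GENCODE M21 annotation of GRCm38, the assembly of the mm10 build named in the submitters' processing notes. Col4a1 (chr8:11198423-11312826, - strand) and Col4a2 (chr8:11312805-11449287, + strand) lie head to head and share 22 bases at their starts. Col4a4 (chr1:82448423-82586849, - strand) and Col4a3 (chr1:82586921-82722059, + strand) lie head to head with 71 bases between them. Among other collagens, Col6a1 and Col6a2 kept their proportion 85161 bases apart and Col5a1 and Col5a2 on different chromosomes, whereas Col3a1 and Col5a2, 24614 bases apart, were at 2.56 and 1.15. Col4a6 and Col4a5 have the same head-to-head arrangement on the X chromosome with 1308 bases between them, and their levels were far apart, at 1.35 and 233 scaled reads per kilobase in the control library. The stretch between Col4a4 and Col4a3 is shown because it lies upstream of both chains that were lower. It is taken from the RefSeq promoter of Col4a4 (GRCm38.p6), chr1:82586850-82586920, 5′ to 3′ on the - strand.
Col4a4-Col4a3: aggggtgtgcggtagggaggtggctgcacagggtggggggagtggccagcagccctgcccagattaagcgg

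This stretch was 69.0% G and C. The CCAAT, TATA and GC boxes were not found in it on either strand. In the 71 bases before the start of all promoters they were found in 13.3%, 4.41% and 20.7%.

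**Figure D2:**
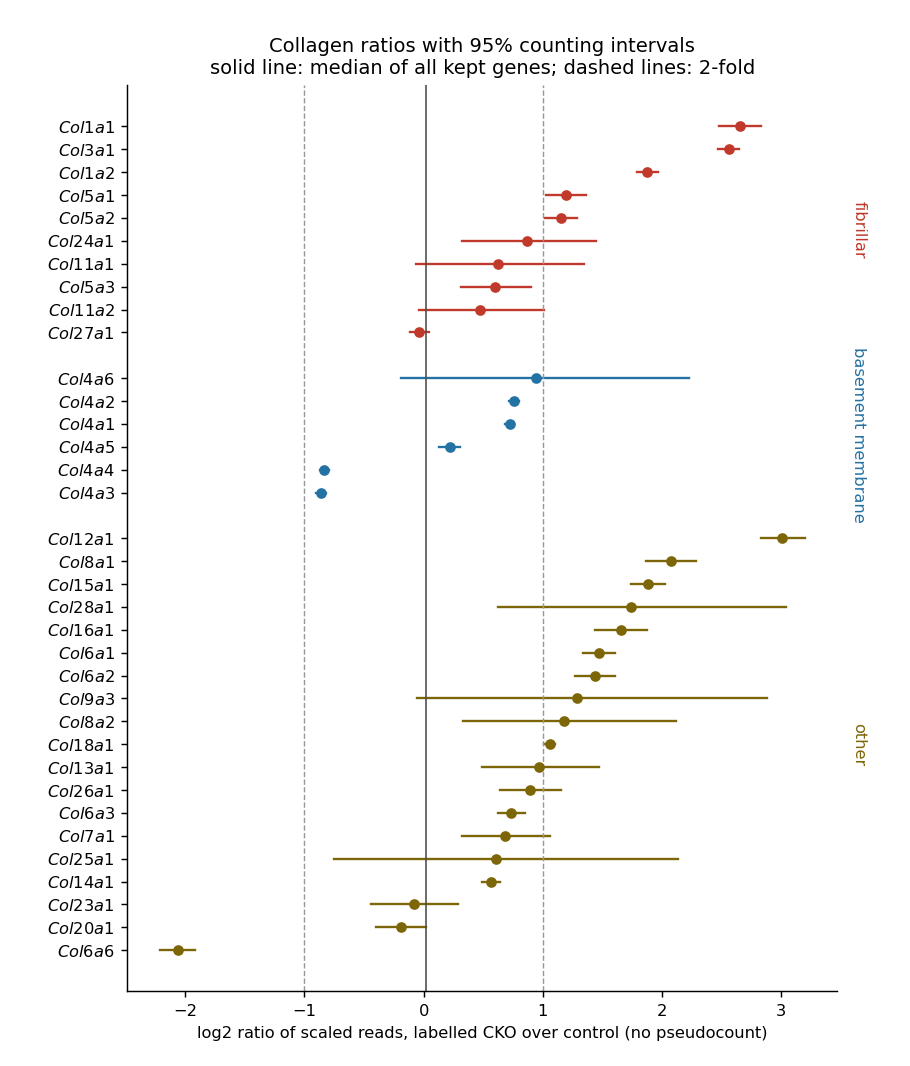
Log2 ratio of scaled reads, library labelled CKO over control, without a pseudocount, for the 35 collagen chains kept by the filter. Bars are 95% Clopper-Pearson intervals for counting error, dashed lines mark 2-fold and the solid line marks the median of all kept genes at 0.022. Col12a1 lies at the high end, Col6a6 at the low end, and Col4a3 and Col4a4 apart from the other basement membrane chains. With equal totals Col20a1, Col23a1 and Col27a1 change sign.

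Among the 21 other collagens, 19 were kept. Of these, 10 (52.6%, compared with 13.4% of all genes) were 2-fold or more higher and 1 (5.26%, compared with 5.35%) was 2-fold or more lower, and the median was 1.06. Fibril-associated collagens bind to the surface of fibrils. Of these, Col12a1 (gene ID 12816, chr9:79598991-79718831) had 258 control and 3117 CKO reads. Its log2 ratio of 3.005 (interval 2.83 to 3.20) was the highest of all collagens kept. Col16a1 had 211 and 995 reads, with a log2 ratio of 1.65. Col9a3 had 6 and 22 reads, and its interval, from -0.057 to 2.88, includes 0. Col14a1, the most abundant of the group per kilobase, had 2091 and 4630 reads, with a log2 ratio of 0.56. Col20a1 had 337 and 443 reads, with a log2 ratio of -0.19, which became 0.23 with equal totals. Members that bind to fibrils therefore ranged from near 0 to the top of the family.

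The beaded filament collagens of type VI link cells to the matrix around them. Col6a1 had 565 control and 2345 CKO reads, and Col6a2 had 364 and 1475. Their log2 ratios were 1.47 and 1.43, and their ratio to each other per kilobase was 1.76 in control kidney and 1.80 in the library labelled CKO. Col6a3, which joins them in a trimer, had 908 and 2267 reads, with a lower log2 ratio of 0.73, or 1.15 with equal totals. Col6a6 (gene ID 245026, chr9:105687809-105828160), an alternative to Col6a3 in the trimer, had 1402 control and 503 CKO reads. Its log2 ratio of -2.06 (interval -2.21 to -1.92) was the lowest of all collagens, and equal totals gave -1.64 and the deposited values themselves -1.38. The ratio of Col6a6 to Col6a3 per kilobase was 1.78 (1.63 to 1.93) in control kidney and 0.255 (0.231 to 0.281) in the library labelled CKO. The order of these alternative chains was thus opposite in the libraries.

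Col15a1 and Col18a1 encode collagens of basement membrane zones, and the end of the Col18a1 protein is released as endostatin. Col18a1 (gene ID 12822, chr10:77052178-77166548) had 4499 control and 14033 CKO reads and a log2 ratio of 1.06 (interval 1.01 to 1.10). It was among the 5 most abundant collagens per kilobase in both libraries, at 804 in control kidney and 1672 in the library labelled CKO. Col15a1 had 465 and 2571 reads, with a log2 ratio of 1.88. Both were therefore more different than Col4a1 and Col4a2, the main network chains of the same membranes.

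Col8a1, a short-chain collagen of vessel walls, had 222 control and 1400 CKO reads and a log2 ratio of 2.07 (interval 1.87 to 2.28). Its partner Col8a2 had 15 and 51 reads, with a log2 ratio of 1.13. Col28a1 had 8 and 40 reads, with a log2 ratio of 1.62. These low values depend on the processing. With scaling but no floor subtracted, Col28a1 was at 0.52, Col8a2 at 0.46 and Col9a3 at 0.27, all short of 2-fold. A pseudocount of 10 put them at 1.03, 0.82 and 0.62. None of the remaining members was 2-fold apart, although equal totals put Col7a1, Col13a1 and Col26a1 past 2-fold, at 1.09, 1.37 and 1.31. Col7a1, the chain of anchoring fibrils in skin, had 88 and 212 reads and was at 0.68, and Col26a1, a chain first found in testis and ovary, had 173 and 482 and was at 0.89. Of the transmembrane collagens, Col13a1 had 48 and 141 reads and was at 0.96, Col25a1 had 7 and 16 and was at 0.54, and Col23a1 had 110 and 156 and was at -0.08, or 0.34 with equal totals. Col18a1, Col8a2, Col9a3, Col5a1 and Col5a2 lay just above the 2-fold line and Col13a1, Col26a1, Col24a1 and Col4a6 just below it, at log2 ratios from 0.85 to 1.19. On the lower side, Col4a3 and Col4a4 lay just short of it. Col4a3bp, the gene that is not a collagen, had 2857 and 3334 reads, with a log2 ratio of -0.36, which became 0.057 with equal totals.

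The make-up of collagen RNA was then compared within each library, which needs no scaling between them. Collagen chains took 55395 of the control reads (0.143%) and 119419 of the CKO reads (0.274%). Basement membrane chains held 67.7% of the control collagen reads (interval 67.3 to 68.1) and 48.3% of those in the library labelled CKO (48.0 to 48.5). Fibrillar chains held 11.05% (10.8 to 11.3) and 22.5% (22.3 to 22.7). Basement membrane chains were thus the largest class in both libraries, with a smaller share in the library labelled CKO. Col1a1, Col1a2 and Col3a1 together held 4.90% of control collagen reads and 16.5% of CKO collagen reads. Without Col27a1 in the control library and Col3a1 in the library labelled CKO, the most abundant fibrillar gene of each, the fibrillar shares were 7.45% and 15.6%. Col4a3 and Col4a4 held 37.9% and 14.7%, and Col4a1 and Col4a2 held 26.97% and 31.3%. The smaller share of the basement membrane class therefore lay with Col4a3 and Col4a4, and the larger fibrillar share with Col1a1, Col1a2 and Col3a1. Counted per kilobase, the fibrillar shares were 12.4% and 24.5%.

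**Figure D3:**
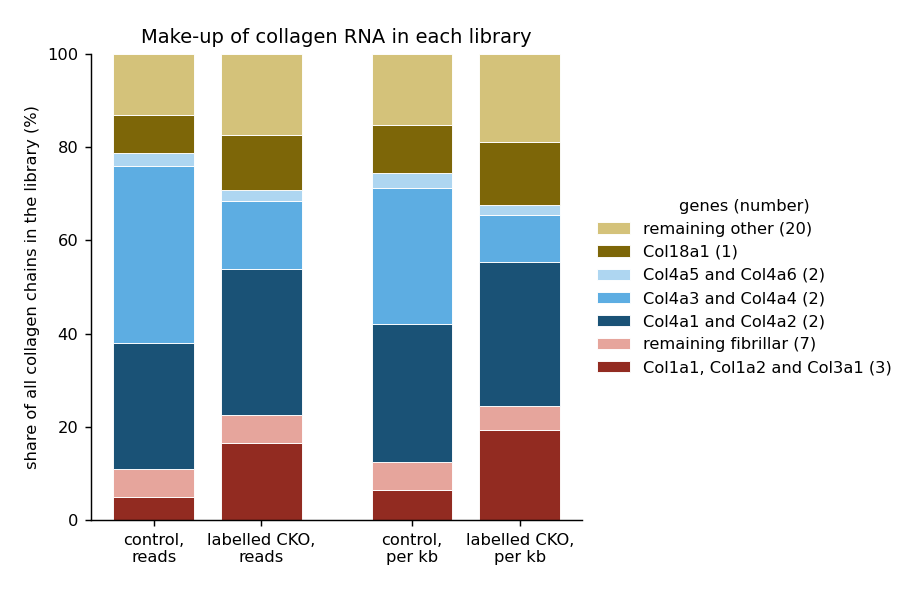
Share of all collagen chains in each library, in percent, for reads (left pair of bars) and for reads per kilobase (right pair), with the number of genes of each part in the legend. The dark red part, Col1a1, Col1a2 and Col3a1, goes from 4.90% to 16.5% of reads, and the mid-blue part, Col4a3 and Col4a4, from 37.9% to 14.7%.

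Genes that act on collagen were read from lists by step, beside the 13.4% of all genes that were 2-fold or more higher and the 5.35% lower. The most abundant gene of a list is that of the control library. In the endoplasmic reticulum, chains are hydroxylated and folded. Of the 19 genes of this list, 1 (5.26%) was 2-fold or more higher and 0 lower, with a median log2 ratio of 0.05. Fkbp10, a collagen prolyl isomerase, was the highest with 149 control and 507 CKO reads at 1.18, and Crtap, of the prolyl 3-hydroxylase complex, the lowest with 2118 and 2031 reads at -0.65. Ppib, the most abundant per kilobase, had 7810 and 10628 reads and was at -0.14. Serpinh1, the collagen chaperone HSP47, had 3507 and 6398 reads and was at 0.28. The folding machinery was thus near the median of all genes where the fibrillar chains were not, although its median was 0.46 with equal totals, near the 0.44 of all genes there.

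Outside the cell, propeptides are cleaved and fibrils are cross-linked. Of 7 genes for procollagen cleavage, 4 (57.1%, compared with 13.4% of all genes) were 2-fold or more higher and 0 lower, with a median of 1.11. Adamts2, the procollagen N-proteinase, was the highest with 88 control and 377 CKO reads at 1.503, Adamts14 the lowest with 89 and 111 reads at -0.26, and Pcolce, the enhancer of C-proteinase and the most abundant per kilobase, had 1435 and 3910 reads and was at 0.86. Of 5 lysyl oxidase genes, which cross-link collagen, 5 (100%) were 2-fold or more higher, with a median of 1.16. Lox had 74 and 767 reads and was at 2.77 (interval 2.44 to 3.15), Loxl4 was the lowest with 46 and 144 reads at 1.05, and Loxl1, the most abundant per kilobase, had 377 and 1268 reads. All cross-linking genes were thus past 2-fold, whereas Pcolce, Adamts14 and Tll1, at 0.58 with 70 and 158 reads, among the cleavage genes were not.

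Of 12 genes for proteins that bind fibrils, 7 (58.3%, compared with 13.4% of all genes) were 2-fold or more higher and 0 lower, with a median of 1.13. Lum (lumican) was the highest, with 57 control and 445 CKO reads at 2.36, and Fmod (fibromodulin) the lowest, with 192 and 177 reads at -0.70. Bgn (biglycan), the most abundant per kilobase, had 4593 and 15789 reads and was at 1.20. Lumican and fibromodulin are related proteoglycans that bind fibrils of type I collagen, and their transcripts went in opposite directions with this scaling. The values of Fmod as deposited were nearly equal in the libraries, so its direction depends on the processing.

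Of 9 collagen receptor genes, 5 (55.6%, compared with 13.4% of all genes) were 2-fold or more higher and 0 lower, with a median of 1.32. Itga11, with 3 and 16 reads, was kept only through its CKO reads, and without it 4 of 8 were higher and the median was 1.01. A pseudocount of 10 brought the median of the 9 to 0.69. The inhibitory receptor gene Lair1 of immune cells was the highest, with 30 control and 248 CKO reads at 2.42, the integrin gene Itga10 the lowest, with 30 and 56 reads at 0.31, and Itgb1, the most abundant per kilobase, had 7835 and 19029 reads and was at 0.70. Of 6 genes for collagen degradation, 4 (66.7%) were 2-fold or more higher and 1 (16.7%) 2-fold or more lower, with a median of 1.84. Mmp2, a gelatinase, was the highest with 199 and 1749 reads at 2.54, Mmp13, a collagenase, the lowest with 76 and 56 reads at -1.01, and Mmp14, which activates the Mmp2 enzyme and was the most abundant per kilobase, had 351 and 1970 reads and was at 1.90. Mmp13 lay just past the 2-fold line, with an interval from -1.55 to -0.51, and fell short of it with equal totals. Mmp9, with 9 and 28 reads, was kept only through its CKO reads and did not pass 2-fold.

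The proteins that share basement membranes with collagen IV were compared with it. Of 15 genes for laminins, nidogens, perlecan and agrin, 3 (20%, compared with 13.4% of all genes) were 2-fold or more higher and 0 lower, with a median of 0.57. Lamb3 was the highest with 61 control and 289 CKO reads at 1.64, and Lama1 the lowest with 1305 and 1126 reads at -0.80, beside Lamb1, the most abundant per kilobase in the control library but not in the other, with 4922 and 10324 reads at 0.48. Col4a3 and Col4a4 lay near Lama1 at the low end, within its interval of -0.91 to -0.68, and Col4a1 and Col4a2 were within their range. Laminin chains of the mature glomerular basement membrane, Lama5 and Lamb2, were at 0.80 and 0.44 and were named after their values were seen.

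Markers of cells that could supply or dilute collagen RNA were read beside these results. Of 10 fibroblast and pericyte markers, 4 (40%, compared with 13.4% of all genes) were 2-fold or more higher and 0 lower, with a median of 0.53 and a sum of 8949 control and 13759 scaled CKO reads. Mfap5 was the highest with 6 and 85 reads at 3.04, but was kept only through its CKO reads, and without it 3 of 9 were higher and the median was 0.48. The other 3 past 2-fold were Tagln at 2.37, Acta2 at 1.70 and Pdgfra at 1.04. Ren1, the most abundant per kilobase in the control library but not in the other, was the lowest with 2387 and 2879 reads at -0.31. Besides Ren1, only Pi16 was below 0, at -0.17. No member was at 0 reads. Of 8 podocyte markers, 0 were 2-fold apart, compared with 13.4% of all genes higher and 5.35% lower. Their median was 0.18, with a sum of 9439 control and 9729 scaled CKO reads. Cdkn1c was the highest with 534 and 1592 reads at 0.99, and Podxl, the most abundant per kilobase, had 4782 and 7595 reads and was at 0.08. Podocytes are known to make the chains of Col4a3 and Col4a4, which were below the median of these markers by log2 ratio. The fewest reads of a podocyte marker were 163 in control kidney and 226 in the library labelled CKO.

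Of 8 endothelial markers, 0 were 2-fold apart, compared with 13.4% of all genes higher and 5.35% lower. Their median was -0.10, which became 0.32 with equal totals, and their sum 15588 control and 14129 scaled CKO reads. Emcn was the highest at 0.14, Kdr the lowest at -0.67, and Plvap, the most abundant per kilobase, had 3854 and 5411 reads. Of 8 proximal tubule markers, 1 (12.5%, compared with 5.35% of all genes) was 2-fold or more lower and 0 higher. Their median was -0.56, and 0.03 for the values left as deposited, with a sum of 411646 and 242994. Slc5a12 was the highest at 0.41, and Slc34a1, the most abundant per kilobase, the lowest, with 147064 and 98124 reads at -1.17. Of 8 distal nephron markers, 1 (12.5%, compared with 5.35% of all genes) was 2-fold or more lower and 0 higher. Their median was 0.14, with a sum of 148660 and 182971. Aqp2 was the highest at 0.79, Pvalb the lowest at -1.17, and Umod, the most abundant per kilobase, was at 0.47. Of 10 macrophage markers, 9 (90%, compared with 13.4% of all genes) were 2-fold or more higher and 0 lower. Their median was 2.64, with a sum of 6512 and 33544. Lyz2 was the highest at 3.66, Csf1r the lowest at 0.51, and Cd74, the most abundant per kilobase, had 2610 and 23956 reads. Each of these lists had reads for every member in both libraries. Slc34a1 and Pvalb fell short of 2-fold with equal totals. The part of cell make-up in the collagen results was not tested.

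**Figure D4:**
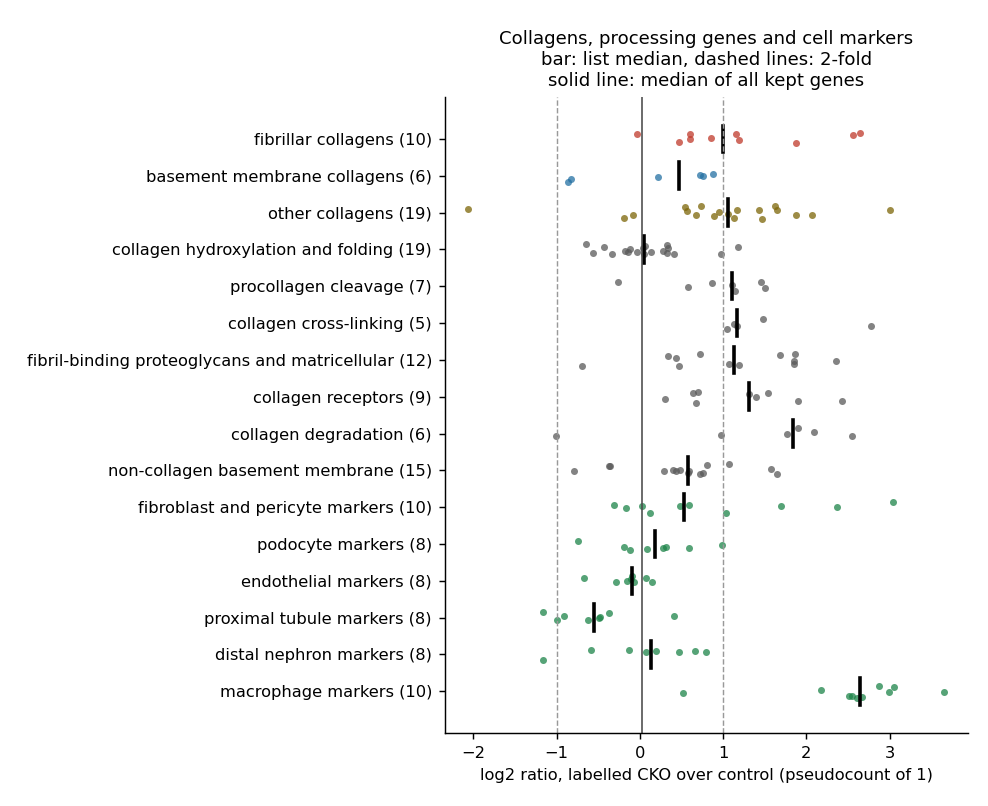
Log2 ratio, library labelled CKO over control, with a pseudocount of 1, of each kept member of the collagen classes, the lists of genes that act on collagen and the cell markers, with the number of genes in parentheses. Bars are list medians, from -0.56 for proximal tubule markers to 2.64 for macrophage markers, with fibrillar collagens at 1.0. With equal totals the endothelial median changes sign.

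Exons of 11 of the 37 chains overlap those of another annotated gene. Besides the shared starts of Col4a1 and Col4a2, the overlapping genes with values here were low: C430014B12Rik, opposite Col4a3, had 3 control and 5 CKO reads, Gm12426, opposite Col15a1, had 24 and 88, and Mir711, within Col7a1 on the same strand, had 2 and 2. The library kit keeps the strand, but the sources used here do not say whether it was used in counting, so reads of an overlap could belong to either gene.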

How the data were processed

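RNA-seq of whole kidney was compared between 1 control and 1 Reg-2 CKO library. The deposited values are a score without a standard unit, given as whole numbers, which the authors name normalized counts. By the methods and the submitters' processing notes, reads were aligned to mm10 with STAR 2.7.3a and counted with HTSeq, and the authors normalized them with DESeq2. As deposited, however, the median log2 ratio of all kept genes was 0.59, so the columns were not matched by their median gene ratio. Libraries were made with the TruSeq Stranded mRNA kit. The Cufflinks 2.2.1 FPKM values were not used here.

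The minimum of each column minus 1 was subtracted, CKO values were scaled by the median gene ratio, and log2 ratios were taken with a pseudocount of 1. A gene was kept with 10 or more scaled reads in either library, and differences were described against 2-fold. Intervals are 95% Clopper-Pearson intervals of the share of CKO reads in both libraries and cover counting error only. They hold only if the floor-subtracted values are read counts, which is inferred. Reads per kilobase used the longest protein-coding GENCODE M21 transcript of each symbol, which may differ from the gene models counted. Members and lists were chosen with earlier results of these data known. Named were all fibrillar and basement membrane chains kept, other collagens past 2-fold or among the 5 most abundant, and the highest, lowest and most abundant gene of most lists. Serpinh1, Loxl3, Lama5, Lamb2, Tagln, Acta2, Pdgfra and Pi16 were added after their values were seen, as were other collagens below 2-fold. Col2a1, Col9a1, Col9a2, Col10a1, Col17a1, Col19a1 and Col22a1 were not analysed here, nor were P4ha3, Tll2, Mmp8 and Fap of the lists.

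Alternatives were pseudocounts of 0.1 and 10, no filter, at least 50 scaled reads, a mean of at least 10, equal totals, equal upper quartiles, a median of 0 for kept genes, other floors, the values as deposited, and thresholds of 1.5-fold and 4-fold. The steps were tested on simulated data. Python 3.11.15, numpy 2.4.6, pandas 2.3.3, scipy 1.17.1 and matplotlib 3.10.9 were used.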

Additional observations from a re-analysis of the deposited data

How the results depend on the processing

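No paired analysis was possible because there was 1 library for each group. Under the setting used, 15 collagens were at least 2-fold higher and 1 lower, and of all genes 2334 were higher and 934 lower (71.4% of them higher). At 1.5-fold and 4-fold as the threshold, 25 and 4 collagens were higher and, at 1.5-fold, 3 lower, and of all genes 3801 and 749 higher and 2423 and 166 lower, as the thresholds themselves bring about. With equal totals, 25 collagens and 3870 genes were higher and 437 genes lower (89.9% higher), the median of all genes moved from 0.022 to 0.44, and the medians of the fibrillar, basement membrane and other collagens moved to 1.42, 0.89 and 1.42. With the values as deposited, 23 collagens and 3574 genes were higher and 131 genes lower (96.5% higher), the median of all genes was 0.59, and those medians were 1.39, 0.80 and 1.21. Without subtraction of a floor but with scaling, 12 collagens and 1196 genes were higher and 463 genes lower. The basement membrane and other medians were then 0.23 and 0.64, since a constant draws low values together.

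With at least 50 scaled reads in 1 library, 12 of the 30 collagens kept were higher, compared with 1614 of 14396 genes (11.2%). Lower were 1 collagen and 617 genes (4.29%). The basement membrane and other medians were then 0.22 and 0.96. The gap of fibrillar over basement membrane collagens went from 0.53 to 0.93, as Col4a6 and Col11a1 were no longer kept. Without a filter the other median was 0.96. A pseudocount of 10 left 13 collagens and 1819 genes (10.4%) higher. It gave 0.37 and 0.84 for the basement membrane and other medians. Among settings chosen after seeing the data, leaving out members with fewer than 10 control reads gave 0.22 and 1.01 for these and a gap of 0.78, and moved the median of collagen receptors from 1.32 to 1.01, and counting Col4a3bp with the other collagens gave 1.01. Fibrillar shares of 11.05% and 22.5% became 12.4% and 24.5% per kilobase, 7.45% and 15.6% without the most abundant fibrillar gene, and 11.4% in the control library with no floor subtracted. The classes kept a median above 0, and the fibrillar share was higher in the library labelled CKO, in every setting run on them. Of the values of single collagens under the alternatives other than filters, which cannot change them, 233 stayed within their 95% interval and 55 moved, with Col20a1, Col23a1, Col27a1 and Col4a3bp changing sign both with equal totals and when left as deposited. Depth limits Col4a6, Col9a3, Col25a1 and Col28a1, each with fewer than 10 control reads.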
